A study of Mus musculus with 13 samples.

Results

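The transcripts described here belong to a set of 35 astrocyte genes, 23 of them homeostatic (identity, transport and metabolism) and 12 of them linked to astrocyte reactivity. The set was given as a list of gene symbols, and its rows were taken by symbol from the authors' comparison tables. Of the 35 genes, 34 were listed in at least 1 table, out of 17562 genes in all. Lcn2 was listed in none, so its expression was not analysed here, and only its promoter was searched.

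Cortical RNA was sequenced from 13 male mice aged 18 months. There were 4 Grn-/-; GRNtg mice, homozygous for the mutated mouse Grn gene and transgenic for human GRN, 4 Grn+/- mice with 1 copy of the mouse gene, and 5 Grn+/+ mice. The first group is called humanized here, after the submitters' description of it as humanized and progranulin deficient. The promoter of the transgene, the number of founder lines and the strain background were not given in the sources used here. Progranulin, the product of Grn, is secreted and also reaches lysosomes, and its haploinsufficiency underlies a form of frontotemporal dementia in humans.

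Astrocytes take up glutamate and GABA released at synapses, buffer ions and water around neurons and vessels, and hold the glycogen store of the brain. They are joined to each other by gap junctions. After injury or in neurodegeneration they enter reactive states, in which intermediate filament proteins such as GFAP and vimentin, acute-phase proteins and cytokine receptors typically increase.

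All values come from the authors' deposited tables, which hold a mean over all mice and a fold change per comparison, and no value per mouse. A level is therefore given as a mean normalized count over all 13 mice, and a difference as a log2 fold change and its standard error (SE), both the authors'. No SE exceeded 0.138. Between humanized and Grn+/- mice it was 0.098 for the scarce Timp1 (mean normalized count 4.85) and 0.138 for the abundant Gfap (4082). Counting error alone would be larger than 0.098 at such a low count, so their fit drew fold changes towards 0. How strongly it did so was not given in the sources used here. A gene is called where the authors' adjusted p was under 0.05. Percentages of the Grn+/+ level are the fold changes written on a linear scale, with 95% intervals of 1.96 SE. Because the fit drew fold changes towards 0, percentages and intervals lie too close to the reference level and understate the changes. For scarce genes the intervals are also narrower than the counts allow. The 2 comparisons with Grn+/+ use the same 5 Grn+/+ mice, so their values stand side by side and are not independent of each other. In bulk cortex, fewer astrocytes and less RNA per astrocyte cannot be told apart.

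As a check of the labels, Grn itself stood at 24.7% of the Grn+/+ level in humanized cortex (interval 22.1% to 27.6%) and at 63.6% in Grn+/- cortex (interval 57.3% to 70.6%) in the authors' deposited tables. The order of the groups matches the labels, but the humanized level as deposited is above the near absence that loss of the whole mouse transcript would give. As the fit drew fold changes towards 0, both percentages are too high, so the amount of Grn signal that remained cannot be read from them. Which transcript any remaining reads came from cannot be told from these tables. The tissue label was matched by abundant neuronal transcripts, with mean normalized counts of 79958 for Camk2a and 46435 for Snap25, and by astrocyte transcripts, with 36930 for Slc1a2. Summed over genes, the mean normalized counts came to 18113972 per library. Reads assigned to no gene, 17.0% of the mean normalized total, were lower in both mutant groups. Their log2 fold change was -0.18 (SE 0.052, adjusted p = 0.024) in humanized and -0.22 (SE 0.052, adjusted p = 0.0019) in Grn+/- cortex, each against Grn+/+, in the authors' deposited tables.

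The homeostatic genes were abundant. Per kilobase of annotated exon, mean normalized counts ran over a wide range, and Glul (9820), Aldoc (5821), Slc1a2 (2812) and Atp1b2 (2464) led the order. Glul, which encodes glutamine synthetase, stood at the 99.9th percentile of all genes on that scale. Nr2e1 (96.6), Cbs (108) and Sox9 (118) were the lowest of the 23 per kilobase. Among the reactivity genes Gfap was the highest per kilobase, at 968, followed by Vim (213) and Serpina3n (131). Cd44, with a mean normalized count of 44.3, Steap4, with 10.5, Cxcl10, with 5.29, and Timp1, with 4.85, were scarce in this aged cortex. Timp1 and Cxcl10 were listed in the comparison of humanized with Grn+/- mice alone, and Steap4 was not listed for Grn+/- against Grn+/+, where the lowest mean normalized count was 24.7.

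In humanized against Grn+/+ cortex, the homeostatic genes leaned downwards. Nr2e1, Ppp1r3c and Slc4a4 fell, and none of the 23 rose. The log2 fold change was negative in 21 of the 23, against 48.7% of all genes, and its median was -0.15, against 0.01 over all genes. The 3 lower calls of 23 compare with a background of 3.05% of genes called lower in the authors' deposited table (1.81% higher, 4.87% in either direction). The members were chosen with earlier results of these data known. Differences between them and all genes, here and in Grn+/- cortex, are therefore descriptions and were not tested. Of the 9 reactivity genes listed, Nes fell and the other 8 were not called, with a median log2 fold change of -0.10.

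In Grn+/- against Grn+/+ cortex, Nr2e1, Ppp1r3c, Gja1, Slc4a4 and Slc1a2 fell, and again none of the 23 homeostatic genes rose. The log2 fold change was negative in 21 of the 23, against 47.6% of all genes, with a median of -0.13, against 0.01 over all genes. The 5 lower calls compare with 4.51% of genes called lower in the authors' deposited table (2.29% higher, 6.80% in either direction). Of the 8 reactivity genes listed, Nes fell, and the median log2 fold change was 0.02.

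Called lower genes were more frequent at the levels of the homeostatic genes than in the whole tables, though not by much. Among the 7929 genes with a mean normalized count of at least that of Nr2e1 (358), 3.87% were called lower in humanized and 5.33% in Grn+/- cortex. With a Student distribution of 10 degrees of freedom, or after division of the statistics by their robust spread, 0 members were called in either comparison with Grn+/+. Nearly all genes lost their calls there, with 1 and 3 of 14961 called in humanized and 0 and 6 of 13482 in Grn+/- cortex.

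**Figure D1:**
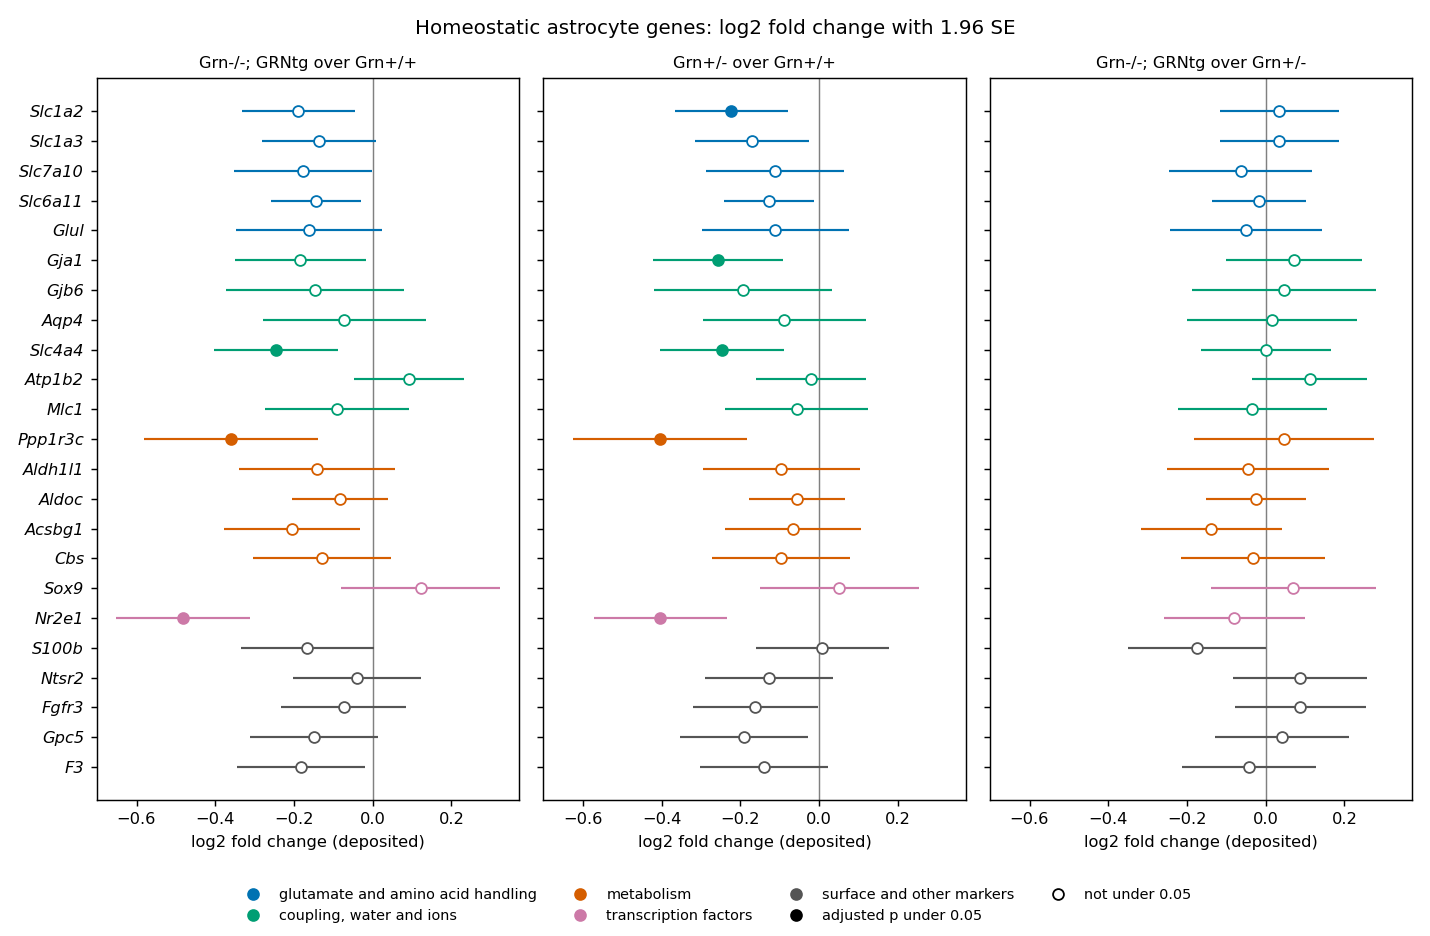
Log2 fold change (x axis) of the 23 homeostatic astrocyte genes (rows) in the 3 comparisons (panels), from the authors' deposited tables. Bars are 1.96 SE, colours give the role of the gene and filled points have an adjusted p under 0.05. In both comparisons with Grn+/+, 21 of the 23 points lie left of 0, while in humanized against Grn+/- cortex 11 of the 23 do.

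Glutamate and amino acid handling was represented by 5 genes, all with negative log2 fold changes in both comparisons with Grn+/+. Slc1a2 encodes GLT-1, the main glutamate transporter of the forebrain. It stood at 87.8% of the Grn+/+ level in humanized cortex (interval 79.4% to 97.0%, log2 fold change -0.19, SE 0.073, adjusted p = 0.11) and fell to 85.7% in Grn+/- cortex (interval 77.5% to 94.6%, log2 fold change -0.22, SE 0.073, adjusted p = 0.040), in the authors' deposited tables. The direct comparison of humanized with Grn+/- mice gave a log2 fold change of 0.03 (SE 0.077, adjusted p = 0.96) for Slc1a2 in the authors' deposited table, so the mutant groups were not shown to differ. The Slc1a2 call in Grn+/- cortex was lost when the trend of the statistics with gene span was removed (adjusted p = 0.13). Slc1a2 shares 189 exonic bases with the antisense gene Gm13872 in the annotation, and whether the counting used strand was not given in the sources used here.

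Slc1a3, the second astrocytic glutamate transporter (GLAST), was at -0.14 (SE 0.074) in humanized and -0.17 (SE 0.074) in Grn+/- cortex on a log2 scale in the authors' deposited tables. Slc6a11, the GABA transporter GAT-3, was at -0.14 (SE 0.059) in humanized and -0.13 (SE 0.059) in Grn+/- cortex there, in the authors' deposited tables. Slc7a10, a carrier of small neutral amino acids including D-serine, was at -0.18 (SE 0.089) in humanized and -0.11 (SE 0.089) in Grn+/- cortex in the same authors' deposited tables. Glul, the enzyme that turns glutamate into glutamine, was at -0.16 (SE 0.095) in humanized and -0.11 (SE 0.095) in Grn+/- cortex in the authors' deposited tables. None of these 4 was called in either comparison, the lowest adjusted p being 0.12 for Slc6a11 in humanized cortex.

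Genes of coupling, water and ion handling were uneven. Slc4a4, the electrogenic sodium bicarbonate cotransporter that helps to set extracellular pH, fell to 84.3% of the Grn+/+ level in humanized cortex (interval 75.6% to 94.0%, log2 fold change -0.25, SE 0.080, adjusted p = 0.048) in the authors' deposited table. Slc4a4 fell in Grn+/- cortex to 84.2% (interval 75.5% to 93.9%, log2 fold change -0.25, SE 0.080, adjusted p = 0.037) in the authors' deposited table. Its log2 fold change in humanized against Grn+/- mice was 0.00 (SE 0.084, adjusted p = 1.0) in the authors' deposited table. Both Slc4a4 calls lie close to the threshold. With the gene span trend removed, the adjusted p was 0.055 in humanized and 0.087 in Grn+/- cortex, the gene being 353 kilobases long against a median of 22.6 over all genes.

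Gja1 encodes connexin 43, the main gap junction protein of astrocytes. It stood at 88.1% of the Grn+/+ level in humanized cortex (interval 78.5% to 98.8%, log2 fold change -0.18, SE 0.085, adjusted p = 0.19) and fell to 83.7% in Grn+/- cortex (interval 74.6% to 93.9%, log2 fold change -0.26, SE 0.085, adjusted p = 0.040) in the authors' deposited tables. Its log2 fold change between humanized and Grn+/- mice was 0.07 (SE 0.088, adjusted p = 0.90) in the authors' deposited table. Gjb6, connexin 30, had a similar log2 fold change with a larger error, -0.15 (SE 0.115) in humanized and -0.19 (SE 0.115) in Grn+/- cortex in the authors' deposited tables, and was not called.

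Aqp4, the water channel of astrocyte endfeet, stood at 95.1% of the Grn+/+ level in humanized cortex (interval 82.4% to 109.9%) and at 94.1% in Grn+/- cortex (interval 81.4% to 108.6%) in the authors' deposited tables. Mlc1, a membrane protein whose loss causes a leukodystrophy in humans, was at -0.09 (SE 0.093) in humanized and -0.06 (SE 0.093) in Grn+/- cortex on a log2 scale in the authors' deposited tables. Atp1b2, a subunit of the sodium pump, was 1 of 2 homeostatic genes with a positive sign in humanized cortex, at 0.09 (SE 0.071), and was at -0.02 (SE 0.071) in Grn+/- cortex in the authors' deposited tables. These 3 genes were not called in either comparison.

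Among metabolic genes, Ppp1r3c changed most. It encodes protein targeting to glycogen, a subunit that brings protein phosphatase 1 to glycogen and favours glycogen synthesis. Ppp1r3c fell to 78.0% of the Grn+/+ level in humanized cortex (interval 66.9% to 90.9%, log2 fold change -0.36, SE 0.113, adjusted p = 0.038) and to 75.5% in Grn+/- cortex (interval 64.8% to 88.0%, log2 fold change -0.41, SE 0.113, adjusted p = 0.012) in the authors' deposited tables. It had a log2 fold change of 0.05 (SE 0.117, adjusted p = 0.96) between humanized and Grn+/- mice in the authors' deposited table.

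The 4 other metabolic genes were not called. Acsbg1, an acyl-CoA synthetase for long-chain fatty acids, was at -0.20 (SE 0.088, adjusted p = 0.15) in humanized and -0.07 (SE 0.088) in Grn+/- cortex on a log2 scale in the authors' deposited tables. Aldh1l1, a folate enzyme widely used to mark astrocytes, was at -0.14 (SE 0.101) in humanized and -0.10 (SE 0.101) in Grn+/- cortex in the authors' deposited tables. Cbs, cystathionine beta-synthase, was at -0.13 (SE 0.089) in humanized and -0.10 (SE 0.089) in Grn+/- cortex, and the glycolytic enzyme Aldoc at -0.08 (SE 0.062) in humanized and -0.06 (SE 0.062) in Grn+/- cortex, in the authors' deposited tables.

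The homeostatic gene with the smallest p in both comparisons with Grn+/+ was Nr2e1, the orphan nuclear receptor TLX, which maintains adult neural stem cells and is also expressed in astrocytes. It fell to 71.6% of the Grn+/+ level in humanized cortex (interval 63.6% to 80.5%, log2 fold change -0.48, SE 0.087, adjusted p = 1.9e-05) and to 75.6% in Grn+/- cortex (interval 67.3% to 85.0%, log2 fold change -0.40, SE 0.086, adjusted p = 0.00038) in the authors' deposited tables. Ordered from the most negative statistic, Nr2e1 was number 10 of 14961 genes in humanized and number 96 of 13482 in Grn+/- cortex. It was at -0.08 (SE 0.091, adjusted p = 0.89) on the log2 scale between humanized and Grn+/- mice in the authors' deposited table. Sox9, a transcription factor of astrocyte identity, had a positive sign in both, at 0.12 (SE 0.103) in humanized and 0.05 (SE 0.103) in Grn+/- cortex, and was not called in the authors' deposited tables.

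The surface and other markers were not called. S100b, a calcium-binding protein, was at -0.17 (SE 0.086) in humanized and 0.01 (SE 0.086) in Grn+/- cortex on a log2 scale in the authors' deposited tables. Gpc5, a glypican with a gene of 1433 kilobases, was at -0.15 (SE 0.083) in humanized and -0.19 (SE 0.083) in Grn+/- cortex in the authors' deposited tables. F3, the coagulation starter tissue factor, was at -0.18 (SE 0.083) in humanized and -0.14 (SE 0.083) in Grn+/- cortex in the authors' deposited tables. The receptors Fgfr3 and Ntsr2 were at -0.07 (SE 0.081) and -0.04 (SE 0.083) in humanized cortex, and at -0.16 (SE 0.081) and -0.13 (SE 0.083) in Grn+/- cortex, in the authors' deposited tables.

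The sequences before RefSeq starts of 5 of the 6 called members are shown, since these transcripts were lower in 1 or both mutant groups. Gja1 is not shown because no GENCODE transcript covers the bases after its start in the RefSeq table, and no motif searched was found before that start. Each line is the stretch from 250 to 71 bases before a RefSeq transcript start (GRCm38.p6), written 5′ to 3′ on the gene's strand. Capitals mark matches to TGGGAA, the core of sites bound by the Notch effector RBPJ, or to AAGTCA, the half-site bound by TLX, on either strand. Slc4a4 has 2 starts in the table, and the second is shown, whose stretch holds no annotated exon. The starts shown for Slc4a4 and Slc1a2 lie inside the annotated genes, which begin at 88886818 on chromosome 5 and at 102658659 on chromosome 2, so neither is the outermost start.
Nr2e1 (chr10:42583661-42583840, minus strand): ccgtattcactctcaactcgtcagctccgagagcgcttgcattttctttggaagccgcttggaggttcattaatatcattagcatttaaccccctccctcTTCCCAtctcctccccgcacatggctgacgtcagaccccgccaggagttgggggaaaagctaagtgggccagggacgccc
Nes (chr3:87970843-87971022, plus strand): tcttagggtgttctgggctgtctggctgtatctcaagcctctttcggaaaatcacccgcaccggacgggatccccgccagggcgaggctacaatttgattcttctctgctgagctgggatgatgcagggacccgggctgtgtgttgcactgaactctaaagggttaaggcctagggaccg
Ppp1r3c (chr19:36736675-36736854, minus strand): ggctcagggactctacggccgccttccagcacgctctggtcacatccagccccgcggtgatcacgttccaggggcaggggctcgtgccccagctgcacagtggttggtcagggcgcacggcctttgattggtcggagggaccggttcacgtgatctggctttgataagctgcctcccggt
Slc4a4 (chr5:89027716-89027895, plus strand): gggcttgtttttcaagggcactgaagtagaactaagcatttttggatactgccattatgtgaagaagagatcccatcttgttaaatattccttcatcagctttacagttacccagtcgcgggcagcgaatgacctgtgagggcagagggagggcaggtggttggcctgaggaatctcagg
Slc1a2 (chr2:102706188-102706367, plus strand): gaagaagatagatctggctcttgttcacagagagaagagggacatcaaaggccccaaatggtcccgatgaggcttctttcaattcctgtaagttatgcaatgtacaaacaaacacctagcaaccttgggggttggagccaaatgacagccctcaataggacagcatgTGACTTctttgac

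The first start of Slc4a4, not printed, has an RBPJ core 128 to 123 bases before it. The RBPJ core stood 150 to 145 bases before the start of Nr2e1, and the TLX half-site 83 to 78 bases before the internal start of Slc1a2. Over the 250 bases before each start, TGGGAA was found for 13 of the 32 members with a promoter in the RefSeq table, and in 21.6% of all 32851 promoters. AAGTCA was found for 4 of the 32, Slc1a2, Slc6a11, Fgfr3 and Cxcl10, and in 13.1% of all promoters. TTCNNNGAA, the pattern bound by STAT factors, was found for 5 members, Acsbg1, Aldoc, Ntsr2, Slc1a3 and Steap4, and in 7.02% of all promoters. In Ntsr2 it overlapped TGGGAA. Acsbg1, Slc1a3, S100b and Serpina3n, counted here, have starts like that of Gja1, with no GENCODE transcript over the bases after them. The full palindromic NFI site was found for 0 members and in 0.0365% of all promoters. Several members and many genes have more than 1 start in the table, so shares over genes and over promoters are not on the same footing. Counted over promoters, TGGGAA was found in 14 of the 35 member promoters, AAGTCA in 4 and TTCNNNGAA in 5.

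Of the reactivity genes, 7 of 9 had a negative log2 fold change in humanized cortex, against 48.7% of all genes, and 4 of 8 in Grn+/- cortex, against 47.6%. Gfap, the filament protein that marks astrogliosis, stood at 112.5% of the Grn+/+ level in humanized cortex (interval 93.4% to 135.5%, adjusted p = 0.50) and at 102.5% in Grn+/- cortex (interval 85.1% to 123.5%, adjusted p = 0.92) in the authors' deposited tables. Its SE, 0.137 in both, was 99.3% of the highest SE in the tables, so this interval is among the widest they hold. The SEs of Vim and Nes were 90.8% and 93.2% of the highest. An SE so close to a limit shared by all comparisons may be set by the fit rather than by the spread among mice. The Gfap interval is therefore not a firm bound on its change. Vim, vimentin, stood at 96.3% in humanized (interval 81.2% to 114.2%) and at 105.2% in Grn+/- cortex (interval 88.7% to 124.7%) in the authors' deposited tables.

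Nes was the exception among the filament genes. It encodes nestin, an intermediate filament protein of neural progenitors that reactive astrocytes re-express and that vascular cells also make. Nes fell to 72.1% of the Grn+/+ level in humanized cortex (interval 60.6% to 85.9%, log2 fold change -0.47, SE 0.129, adjusted p = 0.013) and to 72.9% in Grn+/- cortex (interval 61.2% to 86.8%, log2 fold change -0.46, SE 0.129, adjusted p = 0.012) in the authors' deposited tables. Humanized and Grn+/- mice differed by -0.01 (SE 0.131, adjusted p = 0.99) on a log2 scale in the authors' deposited table. Synm, synemin, a filament gene outside the set, was at -0.08 (SE 0.060) in humanized and -0.01 (SE 0.060) in Grn+/- cortex in the authors' deposited tables.

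**Figure D2:**
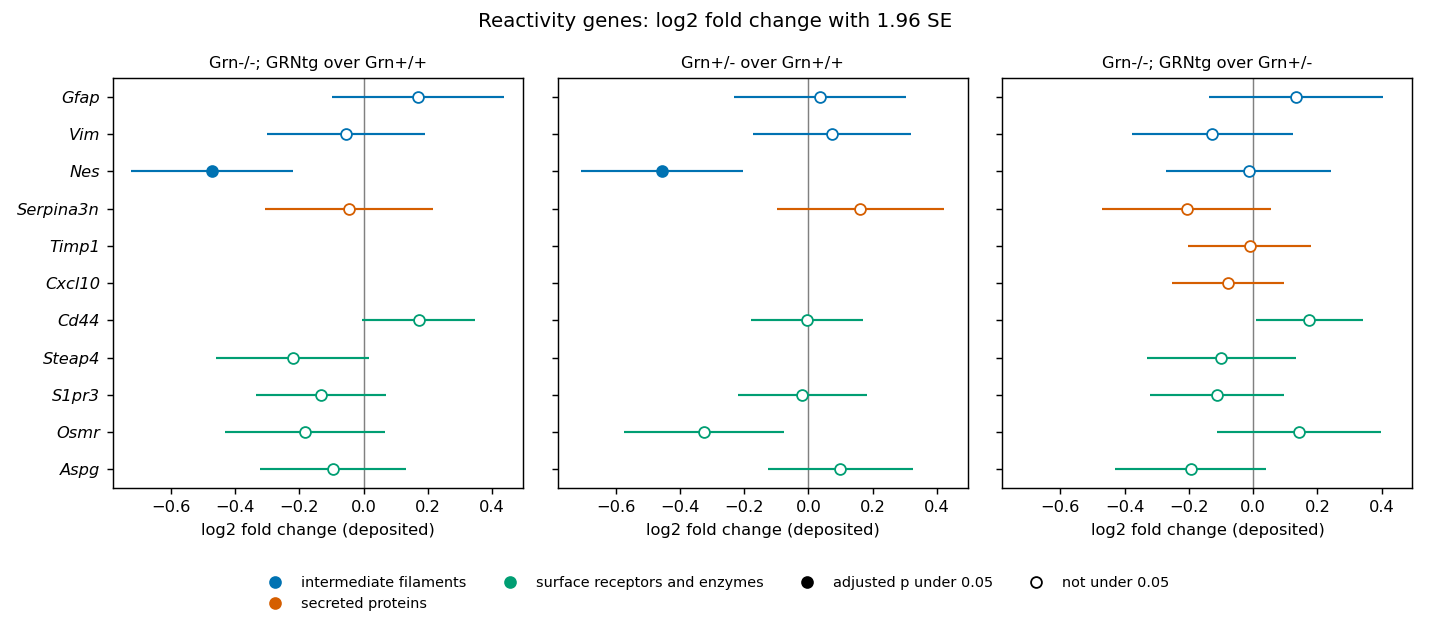
Log2 fold change (x axis) of the 11 reactivity genes listed in at least 1 table (rows) in the 3 comparisons (panels), from the authors' deposited tables. Bars are 1.96 SE, colours give the role and filled points have an adjusted p under 0.05, which holds for Nes in both comparisons with Grn+/+ and for no other gene. Rows without a point were not listed in that table.

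Of the secreted proteins, Serpina3n, a serine protease inhibitor of the acute phase, had opposite signs in the mutant groups. It was at -0.05 (SE 0.133) in humanized and 0.16 (SE 0.133) in Grn+/- cortex, each against Grn+/+, in the authors' deposited tables. Between humanized and Grn+/- mice it was at -0.21 (SE 0.135, adjusted p = 0.71) in the authors' deposited table, so the groups were not shown to differ. Serpina3n has close relatives in its gene cluster, and its count is uncertain where reads were shared among them. The inflammatory genes Timp1, a metalloproteinase inhibitor, and Cxcl10, a chemokine, were at -0.01 (SE 0.098) and -0.08 (SE 0.089) in humanized against Grn+/- cortex in the authors' deposited table. With mean normalized counts of only 4.85 and 5.29, these values do not show an absence of change.

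Among receptors and enzymes, Osmr, the receptor for oncostatin M, was at -0.18 (SE 0.127, adjusted p = 0.42) in humanized and -0.32 (SE 0.127, adjusted p = 0.10) in Grn+/- cortex on a log2 scale in the authors' deposited tables. Cd44, a hyaluronan receptor, stood at 112.6% in humanized (interval 99.7% to 127.1%) and at 99.7% in Grn+/- cortex (interval 88.3% to 112.6%) in the authors' deposited tables. With a mean normalized count of 44.3, these intervals are narrower than counting error alone allows. Cd44 was also the 1 member with an unadjusted p under 0.05 between humanized and Grn+/- mice, at 0.18 (SE 0.086, adjusted p = 0.52) on a log2 scale in the authors' deposited table.

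S1pr3, a sphingosine 1-phosphate receptor, was at -0.13 (SE 0.103) in humanized and -0.02 (SE 0.103) in Grn+/- cortex on a log2 scale in the authors' deposited tables. Aspg, an asparaginase, was at -0.10 (SE 0.116) in humanized and 0.10 (SE 0.116) in Grn+/- cortex in the authors' deposited tables. Steap4, a metalloreductase, was at -0.22 (SE 0.122) in humanized cortex in the authors' deposited table. With a mean normalized count of 10.5, that SE is smaller than counting error alone.

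The direct comparison of humanized with Grn+/- cortex asked whether the mutant groups differ in these genes. None of the 34 members listed was called, with 0.467% of all genes called in the authors' deposited table (0.148% lower and 0.319% higher). At an unadjusted p under 0.05, 1 of the 34 passed. Of the 23 homeostatic genes 11 were negative, with a median log2 fold change of 0.00, and of the 11 reactivity genes 8 were negative, with a median of -0.08. The homeostatic values ran between -0.17 for S100b and 0.11 for Atp1b2 in the authors' deposited table. For Nr2e1 the interval of humanized against Grn+/- allowed 83.6% to 107.1%, for Ppp1r3c 88.1% to 120.9% and for Nes 82.9% to 118.3%.

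**Figure D3:**
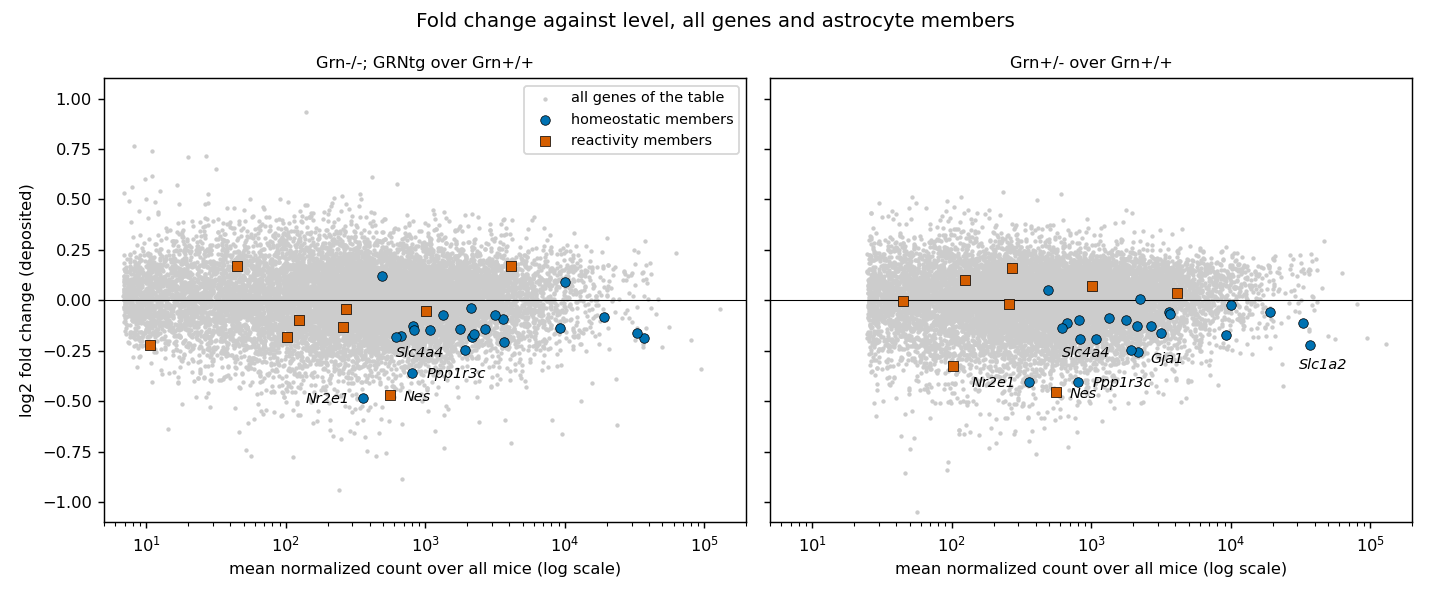
Log2 fold change (y axis) against the mean normalized count over all mice (x axis, log scale) for humanized (left) and Grn+/- (right) against Grn+/+, from the authors' deposited tables. Grey points are all genes, except that Grn in humanized cortex, at -2.02, lies below the axis. Circles are homeostatic and squares reactivity members, and named members have an adjusted p under 0.05. The members called lie at mean normalized counts between 358 for Nr2e1 and 36930 for Slc1a2.

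Other astrocyte genes were taken from 3 lists outside the set. Of 18 genes of ion, water and metabolite handling, Kcnj10, the potassium channel Kir4.1 (-0.39, SE 0.103, adjusted p = 0.0093), Slc16a1, a monocarboxylate transporter (-0.33, SE 0.098, adjusted p = 0.026), and Dtna, dystrobrevin alpha (-0.23, SE 0.070, adjusted p = 0.032), fell in humanized cortex in the authors' deposited table. In Grn+/- cortex Slc7a11, the cystine-glutamate exchanger, fell (-0.39, SE 0.122, adjusted p = 0.027) in the authors' deposited table.

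Of 18 astrocyte transcription factor and surface genes, Emx2, a homeobox gene, fell in humanized (-0.47, SE 0.106, adjusted p = 0.0014) and in Grn+/- cortex (-0.33, SE 0.106, adjusted p = 0.033), and Dbx2, another homeobox gene, fell in Grn+/- cortex (-0.27, SE 0.085, adjusted p = 0.030), in the authors' deposited tables. The log2 fold change was negative in 14 of the 18 in humanized and in 16 of the 18 in Grn+/- cortex. For the 18 ion, water and metabolite handling genes it was negative in 12 and 13, in that order. For the 16 secreted and phagocytic genes it was negative in 10 and 11. Of 16 secreted and phagocytic genes, Megf10, an engulfment receptor, fell (-0.42, SE 0.112, adjusted p = 0.0095) and Gpc4, a synapse-promoting glypican, rose (0.42, SE 0.137, adjusted p = 0.049) in humanized cortex in the authors' deposited table. None of the 16 was called in Grn+/- cortex, where 2 had an unadjusted p under 0.05. Sparcl1 and Apoe, the most abundant of the 16, were at -0.01 (SE 0.081) and 0.02 (SE 0.090) there in the authors' deposited table.

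Around Ppp1r3c, glycogen metabolism was covered by 18 genes. Gaa, the lysosomal glycogen-degrading glucosidase, rose in humanized cortex (0.26, SE 0.079, adjusted p = 0.027), and Pygb, brain glycogen phosphorylase, was at -0.13 (SE 0.065, adjusted p = 0.24), in the authors' deposited table. Of the 17 listed for Grn+/- cortex 0 were called in the authors' deposited table, with 3 at an unadjusted p under 0.05, and Gaa and Pygb, the most abundant, were at 0.12 (SE 0.079) and -0.06 (SE 0.065). Median log2 fold changes of the list were -0.09 in humanized and -0.05 in Grn+/- cortex.

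Further reactive astrocyte genes were mixed. Of 25 listed for humanized cortex, Fkbp5, a glucocorticoid-induced chaperone, rose (0.58, SE 0.112, adjusted p = 0.00011), and Hspb1, a small heat shock protein (-0.50, SE 0.135, adjusted p = 0.012), and Ptgs2, cyclooxygenase-2 (-0.41, SE 0.128, adjusted p = 0.038), fell in the authors' deposited table. Ptgs2 is also an activity gene of cortical neurons. For Grn+/- cortex 0 of 21 were called in the authors' deposited table, with 4 at an unadjusted p under 0.05, and C4b, a complement component, was at -0.05 (SE 0.137). Of the cytokine receptor and STAT3 pathway genes, 0 of 17 were called in humanized cortex, with 4 at an unadjusted p under 0.05. The most abundant, Ptpn11 and Jak1, were at -0.06 (SE 0.075) and 0.01 (SE 0.072) there in the authors' deposited table. The kinases Jak2 (-0.32, SE 0.088, adjusted p = 0.012) and Tyk2 (-0.20, SE 0.068, adjusted p = 0.049) fell in Grn+/- cortex in the authors' deposited table, 2 of 15.

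**Figure D4:**
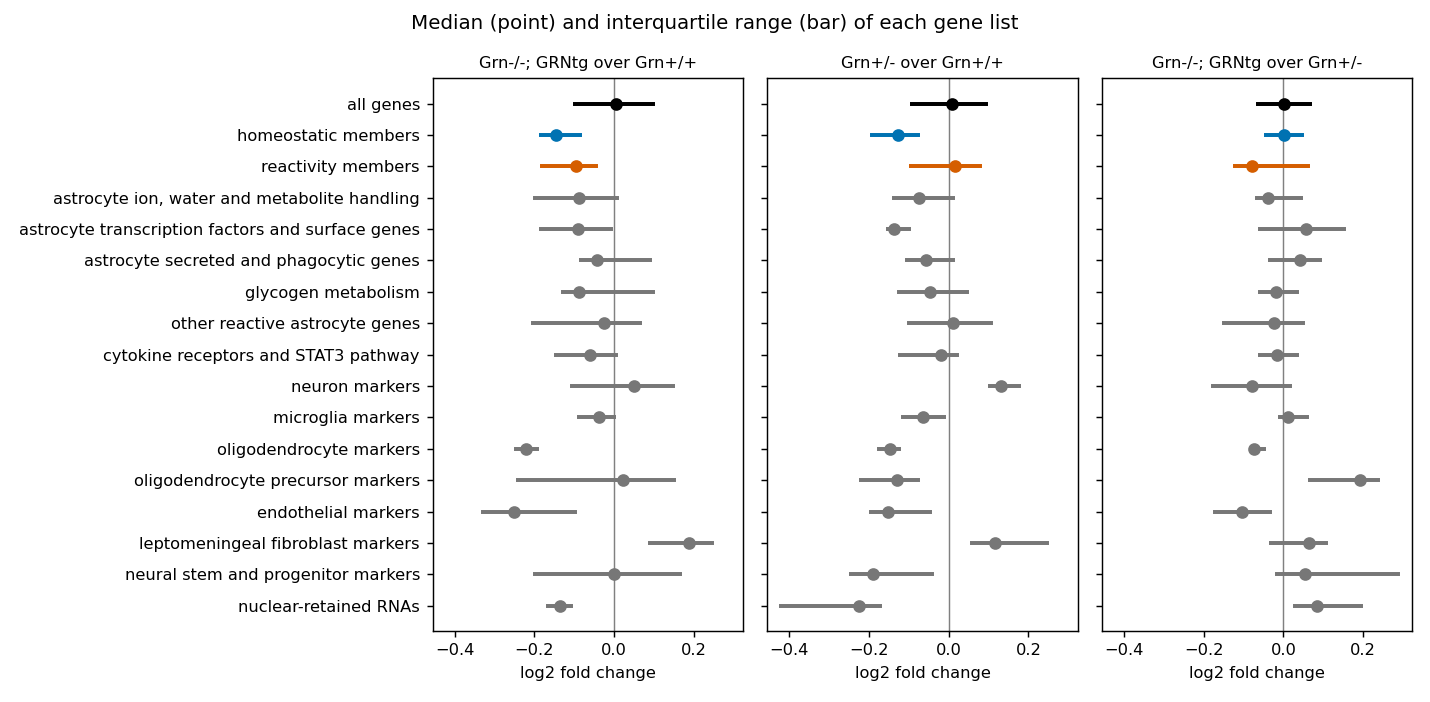
Median (point) and interquartile range (bar) of the log2 fold change for all genes, the astrocyte members and other gene lists (rows) in the 3 comparisons (panels), computed from the authors' deposited values. Homeostatic members have medians of -0.15 in humanized and -0.13 in Grn+/- cortex against Grn+/+, and 0.00 between the mutant groups, beside medians of all genes within 0.01 of 0.

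Genes of other cell types moved too, and their part in the astrocyte values was not tested. Oligodendrocyte markers were negative in 12 of 12 genes in both comparisons with Grn+/+, with medians of -0.22 in humanized and -0.15 in Grn+/- cortex, and Ugt8a fell in humanized cortex (-0.43, SE 0.137, adjusted p = 0.040) in the authors' deposited table. None of the 12 was called in Grn+/- cortex, where 1 had an unadjusted p under 0.05 and the myelin gene Mbp was at -0.18 (SE 0.137) in the authors' deposited table. Markers of endothelium were negative in 10 of 12 in both, with medians of -0.25 in humanized and -0.15 in Grn+/- cortex, and 4 of 12 fell in humanized cortex. These were Slco1c1 (-0.36, SE 0.087), Flt1 (-0.36, SE 0.090), Kdr (-0.40, SE 0.117) and Eng (-0.32, SE 0.103) in the authors' deposited table. None was called in Grn+/- cortex, where 2 had an unadjusted p under 0.05 and Slc2a1 and Flt1 were at -0.16 (SE 0.090) and -0.20 (SE 0.090) in the authors' deposited table. Nes is made by vascular cells as well as by astrocytes, and Slco1c1 is shared by endothelium and astrocytes.

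Leptomeningeal markers went the other way, with medians of 0.19 in humanized and 0.11 in Grn+/- cortex, and Mgp rose in humanized cortex (0.44, SE 0.136, adjusted p = 0.037) in the authors' deposited table. Of 11 listed for Grn+/- cortex 0 were called, 3 had an unadjusted p under 0.05, and Igf2 and Pdgfrb were at 0.17 (SE 0.133) and 0.01 (SE 0.103) in the authors' deposited table. Neuron markers had medians of 0.05 in humanized and 0.13 in Grn+/- cortex. Camk2a fell in humanized cortex (-0.20, SE 0.055, adjusted p = 0.018) in the authors' deposited table. Snap25 rose (0.29, SE 0.097, adjusted p = 0.043) and Map2 fell (-0.25, SE 0.067, adjusted p = 0.0092) in Grn+/- cortex in the authors' deposited table.

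Microglia markers had medians of -0.04 in humanized and -0.07 in Grn+/- cortex, and 0 of 12 were called in either in the authors' deposited tables, with 1 in humanized and 0 in Grn+/- cortex at an unadjusted p under 0.05. Csf1r, a growth factor receptor of microglia, was at -0.04 (SE 0.074) in humanized and -0.10 (SE 0.074) in Grn+/- cortex in the authors' deposited tables. Oligodendrocyte precursor markers had medians of 0.02 in humanized and -0.13 in Grn+/- cortex, where Gpr17 (-0.49, SE 0.094, adjusted p = 7.3e-05) and Vcan (-0.45, SE 0.108, adjusted p = 0.0023) fell in the authors' deposited table. None of the 10 was called in humanized cortex, where 4 had an unadjusted p under 0.05 and Olig1 and Sox10 were at -0.03 (SE 0.092) and -0.26 (SE 0.124) in the authors' deposited table.

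Nr2e1 and Nes are also genes of neural stem cells. Of the stem and progenitor markers, Egfr fell in humanized (-0.40, SE 0.108, adjusted p = 0.013) and in Grn+/- cortex (-0.56, SE 0.109, adjusted p = 8.4e-05), and Prom1 fell in humanized cortex (-0.36, SE 0.107, adjusted p = 0.029), in the authors' deposited tables. These were the called genes among 11 listed for humanized and 10 for Grn+/- cortex. Dcx, a marker of new neurons, was at 0.02 (SE 0.119) in humanized and -0.03 (SE 0.119) in Grn+/- cortex in the authors' deposited tables.

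RNAs kept in the nucleus, listed as a sign of RNA quality, were negative in 8 of 8 in both comparisons, with medians of -0.14 in humanized and -0.23 in Grn+/- cortex. Malat1 fell in humanized cortex (-0.62, SE 0.109, adjusted p = 1.3e-05) in the authors' deposited table. In Grn+/- cortex Malat1 (-0.43, SE 0.109), Mirg (-0.45, SE 0.086), Kcnq1ot1 (-0.42, SE 0.101) and Rian (-0.23, SE 0.066) fell in the authors' deposited table. Whether RNA quality has a part in the values of the astrocyte genes was not tested.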

How the data were processed

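Total RNA of cortex was made into libraries using a directional kit, per the labels' protocols. Build mm10, R 4.1.2 and DESeq2 1.34.0 stand without a role in the submitters' processing notes. The aligner, counter, annotation and strand setting were not given in the sources used here. Per the file headers, the authors' tables hold a mean normalized count (a signal averaged over libraries), a log2 fold change with its SE, a Wald statistic (a score), and p-values with adjusted p-values. The deposited columns were checked: fold change over SE returned the statistic, and Benjamini-Hochberg adjustment of each table returned the adjusted p. The 2 rows that name no gene (17.0% and 0.606% of mean normalized counts) were left out. The depth of single libraries and litters or batches were not given, so p-values reflect only what the authors' fit found among 13 mice. They carry the fit's limits on SE and fold change as well as the spread among mice.

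No model was fitted here. Members were matched by symbol, and counts, medians and intervals were computed in Python 3.11.15 (pandas 2.3.3, numpy 2.4.6, scipy 1.17.1, statsmodels 0.14.6). The script for the alternative adjustments was tested on simulated data. Levels per kilobase used exons of GENCODE M21 (GRCm38), which held 96.2% of the genes listed. RefSeq promoters (GRCm38.p6) covered 32 of the 35 members. The members and the 14 other lists (209 genes) were chosen with earlier results of these data known. Outside the members, a gene was named where its adjusted p was under 0.05, and otherwise where it was among the 2 most abundant of its list, as were all uncalled genes named. Some genes that this rule would name are not reported here.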

Additional observations from a re-analysis of the deposited data

How the results depend on the processing

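No paired analysis was possible because the tables hold no values per mouse, and leaving out single mice was not run for the same reason. After division of the statistics by their robust spread, and with a Student distribution of 10 degrees of freedom, 0 homeostatic and 0 reactivity members were called in either comparison with Grn+/+. The same settings left 3 and 1 genes of 14961 in humanized and 6 and 0 of 13482 in Grn+/- cortex. Where a log2 fold change of at least 0.3 in size was also asked for, 2 homeostatic members were called in Grn+/- cortex and 2 in humanized cortex. With the gene span trend removed, 3 were called in Grn+/- and 2 in humanized cortex. An adjusted p under 0.1, adjustment over the 13482 genes in all tables and a minimum mean normalized count of 50 gave the reported counts of 3 and 5 homeostatic members. Nr2e1, Ppp1r3c and Nes kept their calls under 5 of 7 settings in both comparisons, and Slc4a4 in 3 of 7. These settings leave the fold changes as deposited, so they do not bear on direction. Between the mutant groups 0 members were called under any of them.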
